A study of Mus musculus with 6 samples.

Results

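The cytosolic ribosomal protein genes encode the proteins of the ribosome that translates nuclear-encoded mRNA. Members were the protein-coding genes (GENCODE, GRCm38) whose symbol starts with Rpl or Rps and a digit, together with Rplp0, Rplp1, Rplp2 and Rpsa. Kinases of ribosomal protein S6, the binding protein of Rps19 and pseudogene symbols were left out, as were genes under 10 counts in every library. Of 85 genes that met the symbol and class rule, 6 were under 10 counts everywhere, which left 79 members among the 55487 genes of the table. They comprised 47 genes of the large and 32 of the small subunit, and all 79 entered the tests. The 6 genes below the minimum were Rpl3l, Rpl10l, Rpl39l, Rpl36al, Rps27rt and Rpl24.

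The values are raw read counts of visual cortex RNA (total RNA libraries) from B6.CBA/Tar mice aged 28 postnatal days, of a line bred for a UTR mutation of Mmp9, the gene of a secreted protease of the extracellular matrix. The 3 groups were wild type with 0 mutant alleles (WT), heterozygotes with 1 (het) and homozygotes with 2 (UTRmut), each with 1 female (replicate 1) and 1 male (replicate 2) library. The labels do not give the changed bases, the litters, or whether animals were pooled, so a p-value here covers only how far these libraries differ, and some of that may be technical. Total counts were 9500090 to 11966579 per library.

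A ribosome carries a single copy of nearly every one of these proteins, so cells make them in balanced amounts from many genes spread over the genome. Their mRNAs usually begin with a cytosine followed by a run of pyrimidines, the terminal oligopyrimidine (TOP) tract, through which the kinase mTOR and the protein Larp1 tie ribosome production to growth signals. In neurons, ribosomal protein mRNAs are found in axons and dendrites as well as in the cell body.

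Near the RefSeq start sites of several members whose counts are described below lies a run of this kind. RefSeq promoters (GRCm38.p6) were given for 59 of the 79 members. The motif searched was a C followed by at least 4 bases that are each C or T, on the strand of the gene. The motif matched from the annotated start base on in 13 of the 59 members, 22%, and in 813 of all 27025 RefSeq promoters, 3.01%. Bases before the start were not checked, so some of these matches lie inside a run that begins upstream, as in Rps6 below. A match started within 5 bases of the start, on either side, in 49.2% of the members and in 21.2% of all promoters. These too may be parts of longer runs. The windows below hold the 15 bases before the annotated start and the 15 from it on. They read 5′ to 3′ on the strand of the gene. In capitals is the longest match that starts within 5 bases of the annotated start. The first 5 windows hold such a match, and the last pair holds none. In Rpl35 the bases just before the capitals are also C, so its run begins further upstream.
Rpl38, chr11:114668565-114668594, plus strand: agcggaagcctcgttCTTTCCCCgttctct
Rps27, chr3:90213634-90213663, minus strand: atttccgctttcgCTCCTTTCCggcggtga
Rpl35, chr2:39005117-39005146, minus strand: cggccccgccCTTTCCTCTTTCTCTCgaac
Rps18, chr17:33955651-33955680, minus strand: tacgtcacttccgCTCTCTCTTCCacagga
Rps6, chr4:86857353-86857382, minus strand: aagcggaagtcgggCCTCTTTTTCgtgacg
Rps16, chr7:28350674-28350703, plus strand: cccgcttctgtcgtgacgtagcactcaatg
Rpsa, chr9:120127751-120127780, plus strand: gtgggttatttaaggacgtcatttccggcc

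Members made up 0.820% of all counts in the WT female (95% Wilson interval 0.814 to 0.826), the smallest share of the 6 libraries. The share was 0.886% (0.881 to 0.892) in the WT male, 0.846% (0.841 to 0.852) in the het female, 0.940% (0.934 to 0.946) in the het male, 0.887% (0.882 to 0.893) in the UTRmut female and 0.908% (0.902 to 0.913) in the UTRmut male. These intervals cover counting error only and treat every read as independent, although the reads carry no molecular identifiers that would show duplicates. The shares of the WT male and of the UTRmut female lay within each other's interval, and the het male had the highest share. Scaled with TMM factors (trimmed mean of M-values), the summed level was 7956 and 8895 CPM (counts scaled to library size) for WT, 8369 and 9304 for het, and 9046 and 9452 for UTRmut, female first. In this scaling the UTRmut libraries were both above the WT libraries, and within each genotype the female was below the male. In bulk tissue fewer cells of a type and less RNA per cell cannot be told apart.

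The shift was spread over most members rather than carried by a few. Relative to its own mean over the 6 libraries, the median member stood at -0.16 on the log2 scale in the WT female and -0.08 in the het female. It stood at 0.02 in the WT male, 0.07 in the het male, 0.04 in the UTRmut female and 0.11 in the UTRmut male. The WT female was the lowest library for 59 of the 79 members, against 21.6% of all genes tested, and the UTRmut male the highest for 44, against 17.4%. The SD of log2 CPM over the 6 libraries had a median of 0.12 over the members, from 0.04 for Rps15a to 0.37 for Rps10.

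**Figure D1:**
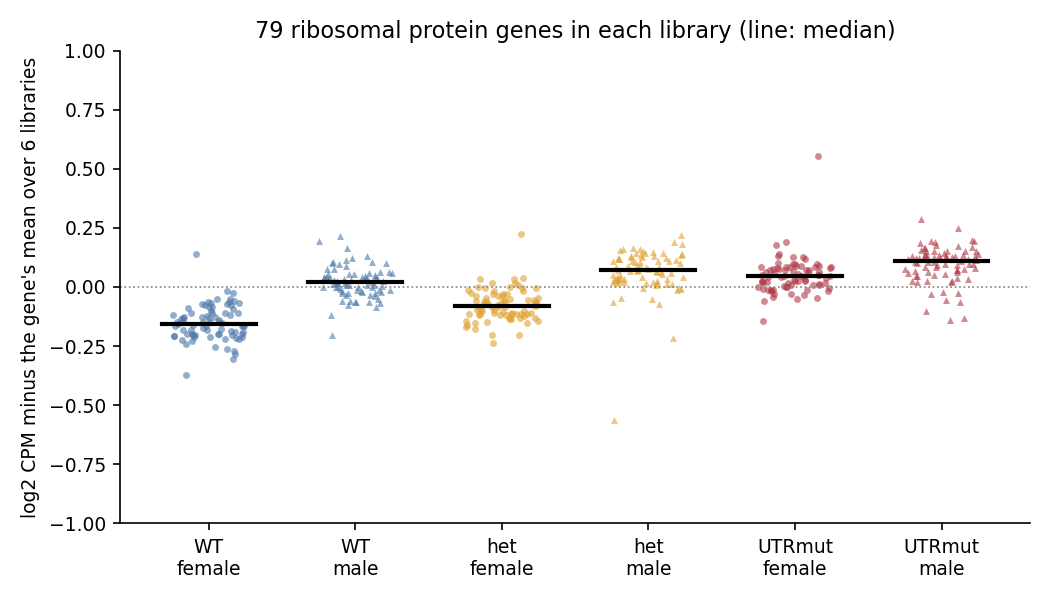
Each point is 1 of 79 ribosomal protein genes: log2 CPM in that library minus the gene's mean over the 6 libraries (circles female, triangles male, black line median). The medians run from -0.16 in the WT female to 0.11 in the UTRmut male.

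Other measures also differed between the libraries, not all in the same order as the members. The annotation class TEC, of gene models that lack experimental support, took 0.751% of counts in the WT female and 0.680% in the het female, against 0.452 to 0.523% in the other 4 libraries. Long intergenic noncoding RNAs took 2.34 and 2.30% there and 1.65 to 1.99% elsewhere. Short protein-coding transcripts that are no members (at most 1000 bases of exon, 207 tested) had a median of -0.12 in the WT female, 0.04 in the WT male, -0.04 and 0.05 for het, and 0.01 and 0.09 for UTRmut, female first. Mitochondrial ribosomal RNA took 6.31 and 8.69% of counts in the UTRmut female and male, against 4.95 to 5.78% in the other 4, and the share of protein-coding genes was lowest in the UTRmut male, at 86.1%. The part of these measures in the shift of the members was not tested. All 12 markers of cortical neurons were detected, at a summed 3391 to 3992 CPM. The lists of cells and regions that a dissection could carry over summed to 4.02 to 52.2 CPM for choroid plexus (8 markers, highest in the WT male), 50.5 to 103 for meninges (8), 96.8 to 232 for red blood cells (5, of which 1 was at 0 everywhere; 179 and 232 in WT, 150 and 96.8 in UTRmut), 59.2 to 77.1 for hippocampus (6), 226 to 261 for striatum and thalamus (9), and 2531 to 3235 for other glia and vessels (12). Their part in the shift was not tested.

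The members ranged widely in level per kilobase of annotated exon. The highest was Rplp1, an acidic protein of the stalk that recruits elongation factors, at 397 ± 29.8 CPM per kilobase (SD, n = 6). Rps15, of the small subunit, followed at 262 ± 26.2 and Rps29, a small zinc-binding protein of the small subunit, at 229 ± 21.8. Rps15 and Rps29 did not differ beyond their SD, and both stood clear of Rplp1 above and of Rpl38 at 161 ± 11.5 below. Rpl38, Rpl41 at 159 ± 13.8 and Rpl4 at 156 ± 10.1 did not differ beyond their SD. With the length of the principal transcript in place of all annotated exons, a choice made after seeing the data, Rps29 led at 408, before Rplp1 at 397 and Rps15 at 330. The median member had 55.6 CPM per kilobase of annotated exon.

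The lowest levels per length belonged to Rps10 at 0.655 ± 0.190 CPM per kilobase, Rpl13a at 3.06 ± 0.313 and Rps27l at 7.38 ± 0.760, and neighbours in this order stood further apart than their SD. Rps10 and Rpl13a encode core proteins of the small and the large subunit. Rps10 had 15 and 18 counts for WT, 12 and 10 for het, and 24 and 19 for UTRmut. Rpl13a had 59 and 71, 57 and 75, and 71 and 85. These 2 genes were also the members with the greatest overlap of exons with another gene on the same strand. The model RPS10-NUDT3 covers 53.6% of the exon bases of Rps10, and Gm45713 covers 59.3% of those of Rpl13a. Both overlapping models had 0 counts in every library. Rpl24, a core protein of the large subunit that missed the minimum with 1 to 6 counts, has 71.5% of its exon bases under Gm28037, also at 0 counts. How reads in shared exons were counted is not given in the sources used here, and 75 of the 79 members have no such overlap.

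**Figure D2:**
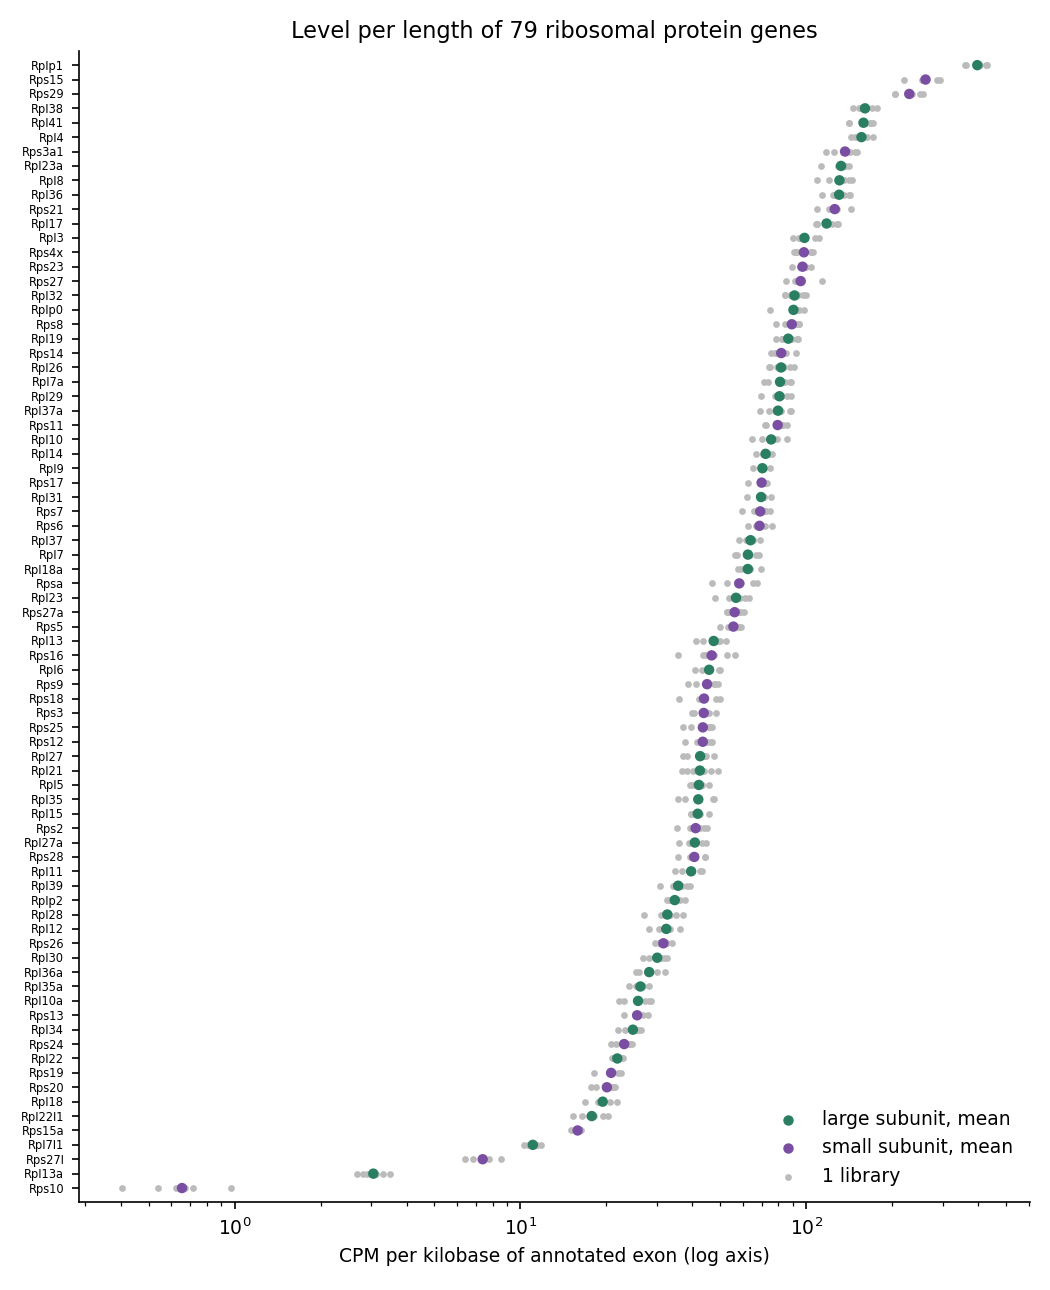
CPM per kilobase of annotated exon (log axis) for the 79 genes, with grey points for single libraries and coloured points for the mean of 6 (green large subunit, purple small subunit). Rps10, Rpl13a and Rps27l stand apart at the bottom, and Rplp1 at 397 stands at the top.

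In UTRmut against WT, 75 of 79 members had a positive log2 fold, against 47.9% of all genes tested, yet no single member passed. The median was 0.14 over the members (0.14 over the large and 0.15 over the small subunit), against -0.01 over the 16119 genes tested, and the range was -0.04 to 0.39. At an adjusted p under 0.05, 0 members passed (edgeR quasi-likelihood test, Benjamini-Hochberg), against 1 gene of all tested, 0.00620%. The smallest adjusted p of a member was 0.999, and DESeq2 also called 0. At an unadjusted p under 0.05, 6 members were higher, 7.59% against 1.09% of all genes, and 0 were lower. For 43 members, 54.4%, both UTRmut libraries were above both WT libraries, against 14.0% of all genes.

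Rps16, a protein of the small subunit near the decoding centre, had the smallest p. It had 45.1 and 60.2 CPM in the WT female and male, 55.2 and 55.9 for het, and 66.8 and 71.4 for UTRmut. Both UTRmut libraries were above the other 4, and the WT female was the lowest. The log2 fold was 0.39 (SE 0.13) against WT and 0.32 (SE 0.13) against het. Rpl35, of the large subunit near the exit of the nascent chain, had 44.1 and 51.7 CPM for WT, 46.6 and 52.2 for het, and 58.5 and 59.1 for UTRmut. Here too both UTRmut libraries were above the other 4, with a log2 fold of 0.29 (SE 0.11) against WT. Rps21, a short protein of the small subunit, had 88.3 and 97.1 CPM for WT, 103 and 104 for het, and 103 and 116 for UTRmut. Its WT libraries were below the other 4, whereas the het and UTRmut values overlapped (log2 fold 0.24, SE 0.10, UTRmut against WT). None of the 3 passed. Rps16 passed without WT replicate 2 (log2 fold 0.63, edgeR, Benjamini-Hochberg adjusted p = 0.0106), where WT is the 1 female library, which is the lowest for most members, and its spread is taken from the other groups. Without WT replicate 1 the members' median in UTRmut against WT was 0.05 with 63 positive, and 0 members had an unadjusted p under 0.05, as was also the case without UTRmut replicate 2.

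The 4 members with a negative log2 fold were Rps27l, Rpl21, Rplp2 and Rpsa, at -0.04 (SE 0.24), -0.02 (SE 0.14), -0.01 (SE 0.10) and -0.01 (SE 0.14). Rplp2 encodes the other acidic stalk protein, and had 67.6 and 77.8 CPM in WT and 75.1 and 69.0 in UTRmut. The stalk proteins thus had unlike values: Rplp0, which anchors the stalk, was at 0.19 (SE 0.10) and Rplp1 at 0.11 (SE 0.10). Their difference from Rplp2 was not tested.

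**Figure D3:**
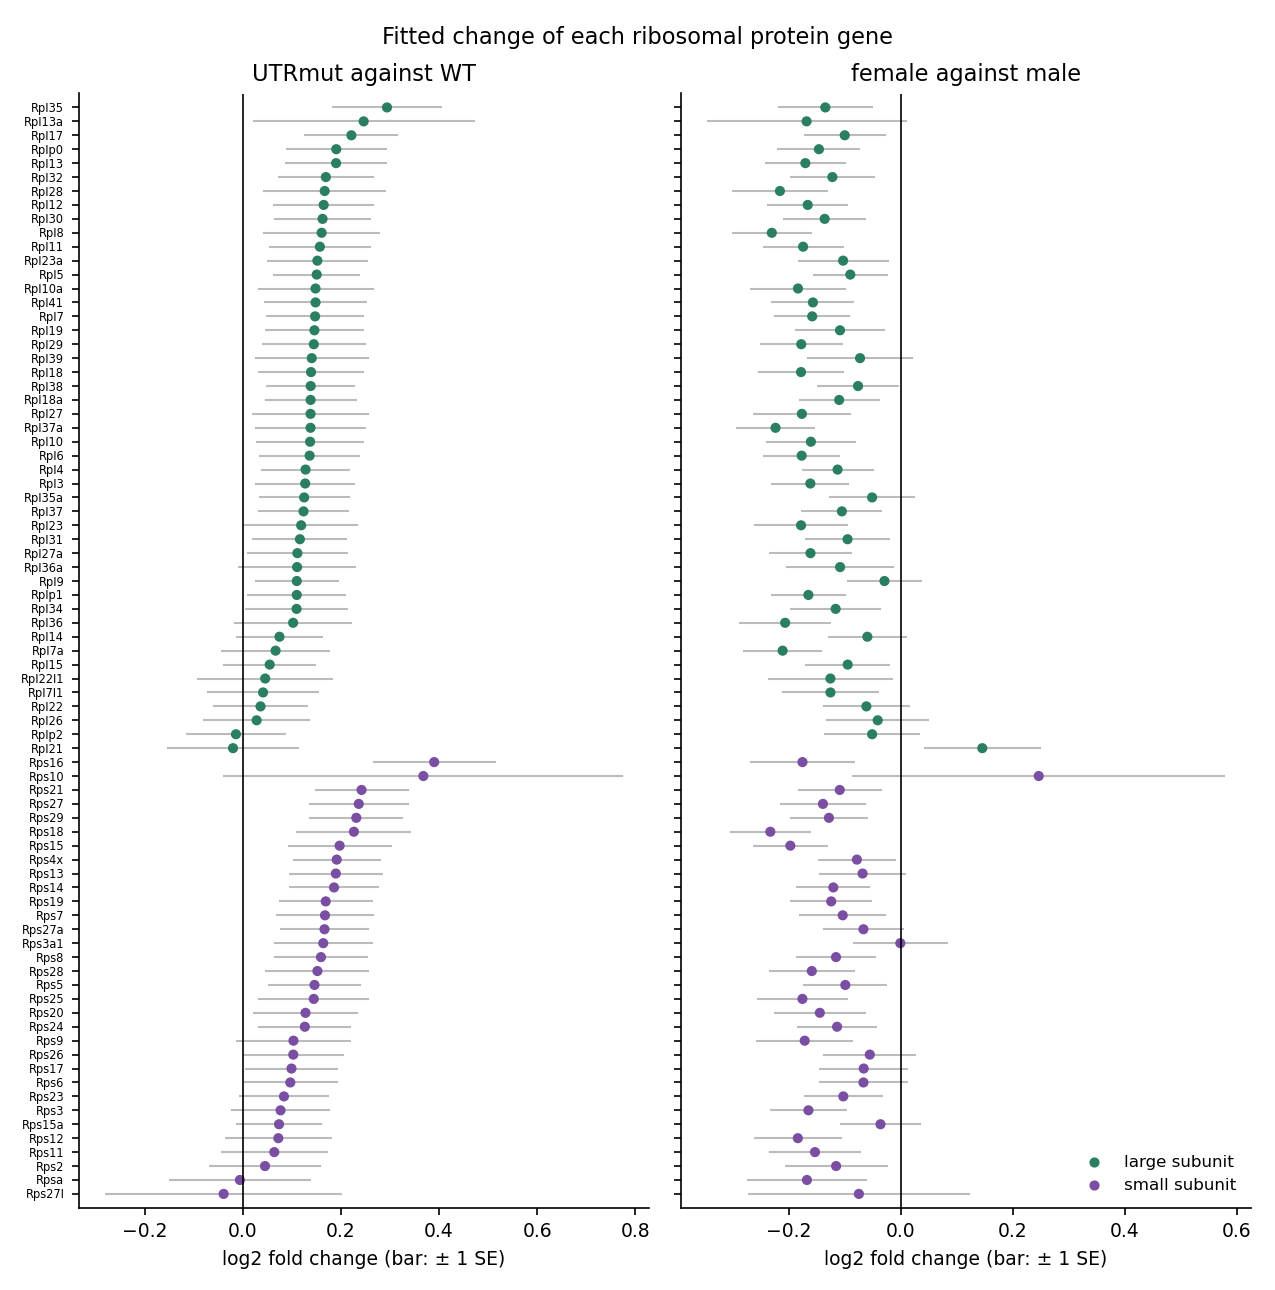
Fitted log2 fold change of each gene with ± 1 SE, UTRmut against WT (left) and female against male (right), in both panels ordered by the left values within subunit (green large, purple small). In the left panel 75 of 79 points lie right of 0, and in the right panel 77 of 79 lie left of it.

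Among members of known role, Rps6, the target of S6 kinase, had 103 ± 5.30 CPM for WT, 113 ± 10.4 for het, and 110 ± 4.93 for UTRmut (SD, n = 2 each). Rps3, at the mRNA entry channel, had 190 ± 15.9, 199 ± 25.2 and 200 ± 6.26 CPM. Rpl5 and Rpl11, which bind Mdm2 when ribosome assembly fails, had log2 folds of 0.15 (SE 0.09) and 0.16 (SE 0.10) for UTRmut against WT. Rpl10a, the protein tagged to purify ribosomes of chosen neurons, was at 0.15 (SE 0.12), Rpl38, which patterns the mouse axial skeleton, at 0.14 (SE 0.09), and Rps29 at 0.23 (SE 0.10). None of these passed. The WT and UTRmut values of Rps3 (179 and 201 against 196 and 205 CPM) and Rpl10a (53.9 and 68.5 against 66.4 and 69.4) overlapped. Those of Rps6 overlapped as well, with nearly equal values in the WT and the UTRmut male.

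In het against WT the members lay less far from 0. The median was 0.07, with 66 of 79 positive, against -0.0038 and 48.9% positive over all genes tested. None passed (0 members, against 2 genes of all tested, 0.0124%). At an unadjusted p under 0.05 there were 0 members, against 2.37% of all genes, and DESeq2 called 0. Both het libraries were above both WT libraries for 10 members, 12.7%, near the 13.4% of all genes. Rps15 had 139 and 162 CPM in WT and 161 and 181 in het, and these ranges overlapped (log2 fold 0.19, SE 0.11). Rplp0 had 124 and 151 CPM in WT and 153 and 157 in het, without overlap (0.17, SE 0.10). Rps21 was at 0.16 (SE 0.10). On the negative side Rps10, at the low counts above, was at -0.46 (SE 0.45), Rps3a1 at -0.08 (SE 0.10) and Rpl38 at -0.07 (SE 0.09). The median was -0.02 without WT replicate 1 and -0.01 without het replicate 2.

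UTRmut against het shares its libraries with the comparisons above. The median was 0.08, with 67 of 79 positive, against -0.0011 and 49.7% positive over all genes tested. In edgeR or DESeq2 0 members passed, against 2 genes of all tested in edgeR, again 0.0124%. At an unadjusted p under 0.05, 4 members were higher, 5.06% against 1.06% (0 passed that level without UTRmut replicate 2 and 1 without het replicate 1), and both UTRmut libraries were above both het libraries for 17 members, 21.5% against 16.4%. The smallest p belonged to Rps16, to Rps3a1 at 0.24 (SE 0.10) and to Rpl38 at 0.21 (SE 0.09) among those above 0, and to Rpsa at -0.19 (SE 0.14), Rpl21 at -0.13 (SE 0.14) and Rpl26 at -0.08 (SE 0.11) among those below. Without het replicate 1 the median was -0.0036 and 38 members were positive, and with scaling to total counts alone it was 0.02 with 46 positive.

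As a change per mutant allele over all 6 libraries, 75 of 79 members were positive, with a median of 0.07. Over all genes tested the median was -0.0049, with 47.8% positive. In edgeR or DESeq2 0 members passed, against 0.00% of all genes in edgeR. At an unadjusted p under 0.05, 8 members were higher, 10.1% against 1.32%, and this count was 0 without UTRmut replicate 2, 2 without WT replicate 1 and 39 without WT replicate 2. The smallest p were those of Rps16 at 0.20 (SE 0.06) per allele, Rpl35 at 0.15 (SE 0.05) and Rps21 at 0.12 (SE 0.04). Rps27l, Rpl21 and Rplp2 were at -0.02 (SE 0.12), -0.01 (SE 0.07) and -0.01 (SE 0.05).

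Females had lower values than males for nearly all members, and no single member passed. All females are replicate 1 and all males replicate 2, so sex cannot be told apart from any other difference between these series. With sex and genotype as terms, 77 of 79 members were negative in females against males, with a median of -0.12. Over all 16119 genes tested the median was -0.0017, with 8132 negative. None passed (0 of 79 in edgeR and in DESeq2, against 6 genes of all tested, 0.0372%). At an unadjusted p under 0.05, 18 members were lower in females, 22.8% against 2.18% of all genes. This count was 0 without either het library and 5 with DESeq2. The female was below the male within all 3 genotypes for 52 members, 65.8% against 14.3%. All 3 females were below all 3 males for 18 members, 22.8% against 5.84%.

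Rpl8, of the large subunit next to the peptidyl transferase centre, had 148, 163 and 180 CPM in the WT, het and UTRmut females and 185, 197 and 193 in the males. The ranges of the sexes did not overlap (log2 fold -0.23, SE 0.07). Rps18, of the small subunit, had 88.0, 103 and 106 CPM in females and 108, 118 and 123 in males, also without overlap (-0.23, SE 0.07). Rpl37a had 97.4, 104 and 110 CPM in females and 115, 124 and 124 in males (-0.22, SE 0.07). The 3 genes were lower in the female of every genotype, and none passed. The members above 0 were Rpl21 at 0.15 (SE 0.10) and Rps10 at 0.25 (SE 0.33).

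The X chromosome carries 4 members. Rpl10, which joins the large subunit late in its maturation, was at -0.16 (SE 0.08) in females against males, Rpl36a at -0.11 (SE 0.10), Rpl39 at -0.07 (SE 0.10) and Rps4x at -0.08 (SE 0.07). All 4 were on the side of the autosomal members, and none passed.

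Within each sex the genotypes had 1 library each, so differences carry no test. UTRmut minus WT had a median of 0.20 over the members in females (77 of 79 positive) and 0.08 in males (65 positive). Het minus WT was 0.08 (64 positive) and 0.06 (60 positive). UTRmut minus het was 0.13 (72 positive) and 0.03 (51 positive). Female minus male was -0.17 in WT (77 of 79 negative), -0.15 in het (73) and -0.06 in UTRmut (57). The sexes were thus nearest in UTRmut. Over all genes tested the medians of these differences ran from -0.012 to 0.0035, with 48.4 to 50.7% positive. When the change per allele was compared between females and males, 0 members passed in edgeR and in DESeq2, against 194 of all genes, 1.20%. At an unadjusted p under 0.05, 8 members were higher, 10.1% against 7.39%, and 1 was lower, 1.27% against 6.19%. The smallest p belonged to Rpsa at 0.31 (SE 0.09), Rpl22l1 at 0.29 (SE 0.10) and Rps9 at 0.19 (SE 0.07), and on the other side to Rpl21 at -0.27 (SE 0.08), Rpl3 at -0.11 (SE 0.07) and Rps27 at -0.09 (SE 0.07). The adjusted p of Rpsa and Rpl21 was 0.135 and 0.130 (edgeR, Benjamini-Hochberg), and both passed without a filter on low counts (0.00284 and 0.0292), where 2.53% of members and 2.05% of all genes passed. With the counts of its pseudogene copies, described below, Rpsa was at 0.11 (adjusted p = 0.530).

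**Figure D4:**
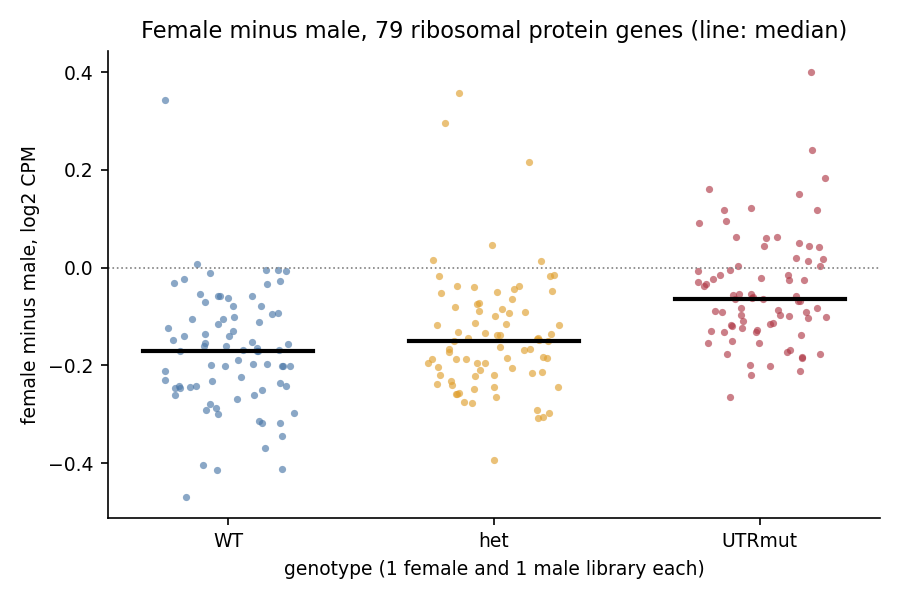
Each point is 1 of 79 genes: log2 CPM of the female minus that of the male library of the same genotype (black line median). The medians are -0.17 in WT, -0.15 in het and -0.06 in UTRmut.

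A few members stood apart from the rest in single libraries, and for 3 of them the counts of near-identical pseudogenes ran the other way. Members share sequence with other annotated genes, pseudogenes among them. A median 43.9% of the 50-base words of their principal transcript occur in another annotated gene of any class, and 32 members share more than 50%. The same share over all genes was not computed. The table lists 292 pseudogenes named after members, of which 161 had 0 counts everywhere and 13 reached 10 counts. The following genes were chosen after their values were seen. Rps3a1, of the small subunit, had 1266 and 1612 counts for WT, 1278 and 1226 for het, and 1554 and 1697 for UTRmut, female first. Its copy Rps3a3 had 273 and 299, 270 and 642, and 309 and 339 counts, and the copy Rps3a2 had 56 and 58, 37 and 106, and 58 and 43. The het male was thus the lowest library of the gene in CPM and the highest of both copies. Against the median member, Rps3a1 stood at -0.29 on the log2 scale in that library.

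Rpl26, of the large subunit, had 107 CPM in the UTRmut male and 108 to 131 in the other 5 libraries. Its copy Gm15772 had 345 counts in the UTRmut male and 94 to 169 elsewhere. Rpsa, also known as the laminin receptor and a part of the small subunit, had 1541 and 2382 counts for WT, 1806 and 2288 for het, and 1989 and 1922 for UTRmut. Its copy Rpsa-ps10 had 968 and 692, 502 and 622, and 1194 and 1306 counts. The copy was highest in the WT female and both UTRmut libraries, the 3 libraries with the lowest Rpsa in CPM.

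The copies differ from the member at few bases. Over the whole copy, Rpsa-ps10 matched the Rpsa transcript at 879 of 885 aligned bases, Rps3a3 matched Rps3a1 at 786 of 795, Rps3a2 at 788 of 792, and Gm15772 matched Rpl26 at 436 of 438. The longest stretch without a difference was 350, 215, 317 and 176 bases. The windows below show 1 difference for each of 3 pairs, from the GENCODE transcripts (GRCm38), 5′ to 3′, with the differing base in capitals.
Rpsa, chr9:120128499-120128528, plus strand: gcccttgacgtcctgCagatgaaggaggag
Rpsa-ps10, chr3:150073504-150073533, minus strand: gcccttgacgtcctgAagatgaaggaggag
Rps3a1, chr3:86141363-86141392, minus strand: tgaagtgagccttgcTgatctacagaatga
Rps3a3, chr13:108670803-108670832, plus strand: tgaagtgagccttgcCgatctacagaatga
Rpl26, chr11:68903283-68903312, plus strand: tggcacaaccgtccaTgtgggcatccaccc
Gm15772, chr5:3236703-3236732, plus strand: tggcacaaccgtccaCgtgggcatccaccc

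Counts of all 404 annotated pseudogenes sharing at least 100 such words with a member were then added to the member they share most with. These copies added 2.09 to 3.01% to the members' counts per library. With them Rps3a1 had 155 and 171 CPM for WT, 166 and 185 for het, and 180 and 182 for UTRmut, and the largest gap to the median member fell from 0.29 to 0.04. The gap of Rpl26 went from 0.25 to 0.08 and that of Rpsa from 0.24 to 0.13. Members with a gap over 0.2 went from 7 to 4. Not every member moved closer: the gap of Rps10 rose from 0.63 to 0.74, and the SD of log2 CPM of Rpl15 from 0.08 to 0.14. The log2 fold of Rps3a1 in het against WT turned from -0.08 to 0.11, and that of Rpsa in UTRmut against het from -0.19 to 0.19. Rpl21, higher than the median member by 0.30 in both the WT and the het female, kept a gap of 0.30 with copies. It had 158 and 125 CPM for WT, 168 and 137 for het, and 130 and 149 for UTRmut, so its females were above its males in WT and het and below in UTRmut. With copies added, 0 members passed in any of the 6 comparisons, and the members' medians were 0.14 in UTRmut against WT, 0.06 in het against WT, 0.08 in UTRmut against het and -0.13 in females against males.

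**Figure D5:**
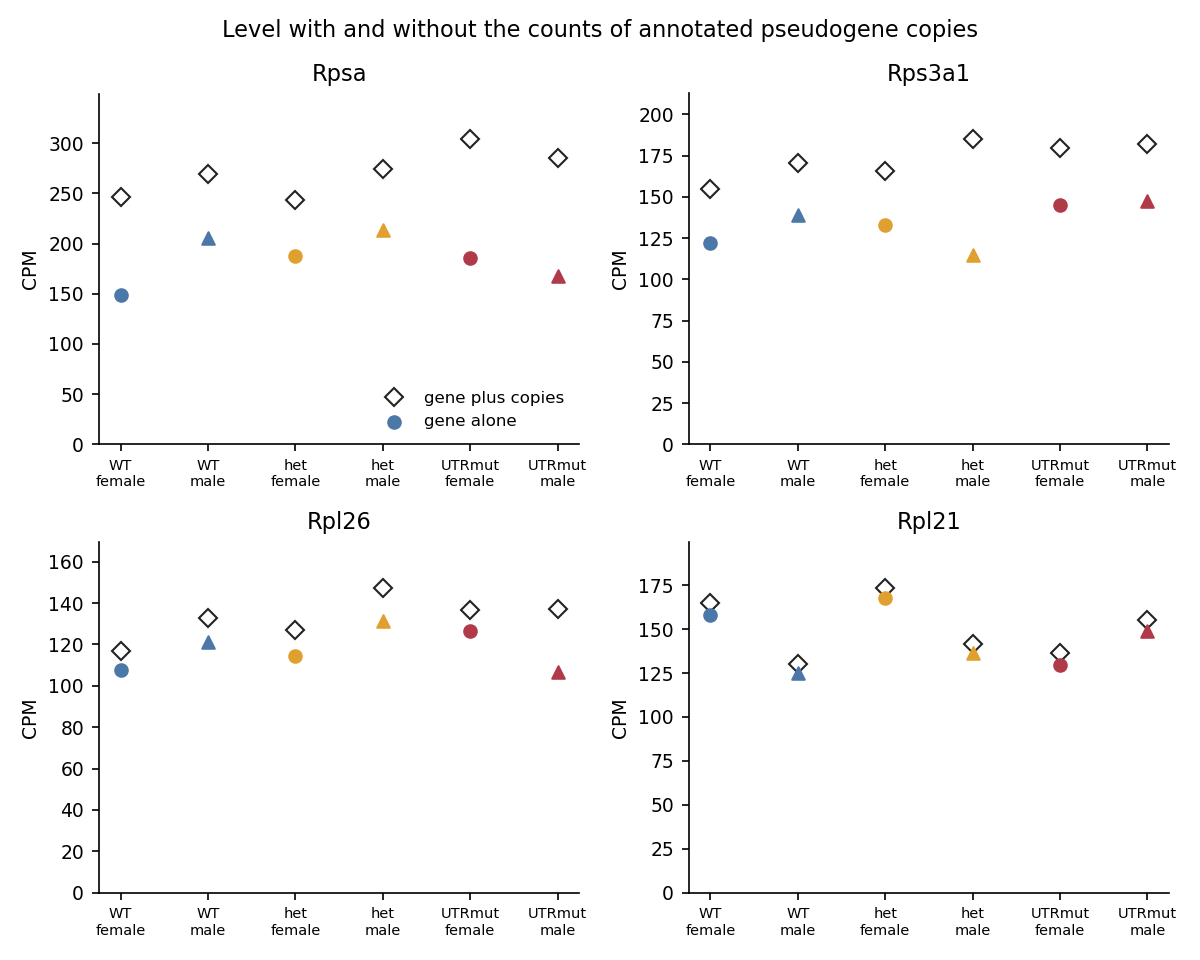
CPM per library of 4 genes alone (filled, coloured by genotype, circles female and triangles male) and with the counts of annotated pseudogene copies added (open diamonds). For Rps3a1 the low het male, and for Rpl26 the low UTRmut male, are no longer the lowest once copies are added, while Rpl21 changes little.

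Other copies were present in some libraries and near 0 in others. Among the copies of Rpl15, Rpl15-ps2 had 0 and 68 counts for WT, 1 and 0 for het, and 43 and 52 for UTRmut. Gm10020 had 3 and 66, 0 and 2, and 67 and 78, and Gm4294 had 2 and 48, 2 and 4, and 48 and 42. These 3 copies lie on chromosomes 9, 15 and 12, and all had 42 or more counts in the same 3 libraries and at most 4 in the other 3. Gm8129, a copy of Rpl38, had 3 and 30, 1 and 18, and 32 and 0. The source of this pattern was not tested.

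Paralogs of members differ in tissue use, and Rpl3l, Rpl10l, Rpl39l and Rpl36al had few or no counts in the cortex. Rpl3l, a muscle gene, had at most 2 counts, and the testis genes Rpl10l and Rpl39l had 0, which allows up to 3 counts per library. Rpl36al had 3 to 9 counts against 413 to 566 for Rpl36a, but 26.0% of its exon bases lie under Gm49383 on the same strand. The coding sequences of these pairs were identical at 73.2% (Rpl3 and Rpl3l), 84.7% (Rpl10 and Rpl10l), 85% (Rpl39 and Rpl39l) and 87.7% (Rpl36a and Rpl36al) of aligned bases. Rpl22l1 had 35.3 ± 6.98 CPM for WT, 34.2 ± 2.33 for het, and 36.5 ± 2.90 for UTRmut. Rpl22 had 61.8 ± 0.720, 65.5 ± 1.61 and 63.4 ± 3.40. These CPM are not scaled to length, and the principal transcripts have 552 (Rpl22l1) and 2051 bases (Rpl22), so the pair is not ranked here. Rpl7l1, a factor of large subunit assembly, had 38.4 ± 1.91, 38.1 ± 2.73 and 39.5 ± 2.49 CPM, and Rpl7 160 ± 12.1, 167 ± 18.0 and 177 ± 8.69. Rps27l, a target of p53, had 6.10 ± 1.26, 6.01 ± 0.0418 and 5.96 ± 0.552 CPM, and Rps27 92.0 ± 4.30, 99.0 ± 2.52 and 108 ± 14.1 (SD, n = 2 each). Rps27 was at 0.24 (SE 0.10) in UTRmut against WT and did not pass. Rps4l, the paralog of Rps4x, is annotated as a pseudogene and was no member.

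Genes around the ribosome were read from the same fit, and 0 passed in UTRmut against WT, het against WT or females against males. Rack1, a scaffold protein on the small subunit, was at 0.19 (SE 0.12) in UTRmut against WT and at -0.22 (SE 0.07) in females against males. Fau, a ribosomal protein of the small subunit, was at 0.06 (SE 0.12) and -0.24 (SE 0.07). In UTRmut against WT 47.9% of all genes tested were positive (median -0.01). Of 20 elongation factors and other TOP mRNAs 18 were positive in that comparison (median 0.09). Among them were the initiation factor subunits Eif3h at 0.21 (SE 0.09) and Eif3e at 0.19 (SE 0.10). Of 41 assembly factors 28 were positive (median 0.05), with Rsl24d1 at 0.35 (SE 0.15) and Nhp2 at -0.39 (SE 0.18). Of 8 tested noncoding hosts of small nucleolar RNAs 7 were positive (median 0.18), with Epb41l4aos at 0.77 (SE 0.34) and Snhg3 at 0.52 (SE 0.37).

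Regulators and RNA polymerase I genes had medians on the other side of 0, as did all genes tested (median -0.01, 47.9% positive). Of 20 regulators of TOP mRNAs and mTOR 8 were positive (median -0.02), with Deptor, an inhibitor of mTOR, at -0.27 (SE 0.12) and Cnbp at 0.14 (SE 0.09). Of 15 genes of ribosomal RNA transcription 5 were positive (median -0.09), with Taf1a at -0.43 (SE 0.20) and Ubtf, the upstream binding factor, at 0.19 (SE 0.09). Of 11 genes of ribosome dormancy and quality control 8 were positive (median 0.02), with Hbs1l at 0.17 (SE 0.10) and Abce1 at 0.11 (SE 0.11). The proteins of the mitochondrial ribosome (77 tested) had a median of 0.05 in UTRmut against WT, -0.02 in het against WT and -0.09 in females against males. Short transcripts that are no members had 0.09, 0.02 and -0.11 in the same comparisons, on the same side as the members' 0.14, 0.07 and -0.12. They were not matched to the members in length. The limit was 1000 bases of exon, whereas the members had a median of 1830 bases of exon and 886 of principal transcript. Whether the medians of these lists differ from that of the members was not tested.

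Members were also described with and without the pyrimidine run. With starts of the GENCODE principal transcripts, chosen after seeing the data because they cover all 79 members, 19 members with a run within 5 bases had a median log2 fold of 0.12 in UTRmut against WT, and the 60 members without it 0.15. The 1403 other protein-coding genes tested with such a run had a median of 0.0042. By these starts Rpl38, Rpl35 and Rps6, shown above with a run at RefSeq starts, had none within 5 bases, whereas Rpsa did have a run. In UTRmut against het the members' medians were 0.04 with a run and 0.08 without, and in het against WT 0.08 and 0.06. In females against males the medians were -0.12 with a run, -0.12 without and -0.02 in the other genes. These differences were not tested.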

How the data were processed

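Total RNA of visual cortex was sequenced from 6 libraries (TruSeq Stranded Total RNA, per the labels). The deposited values are raw read counts per gene. The submitters' processing notes name HTSeq 0.6.0, HISAT2, the GRCm38 build, Trimmomatic 0.39 and GATK 4.2.3.0. The annotation release, strand setting and counting mode were not given in the sources used here. Gene names were matched for 55227 of 55487 IDs, and the 260 unmatched IDs held 0.0162% of counts.

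Counts were fitted in R 4.3.3 with edgeR 4.0.16 (TMM factors, filterByExpr with a minimum count of 10 and total of 15, robust quasi-likelihood F test) on all 6 libraries. The terms were genotype, allele number, genotype and sex, or alleles, sex and their product. P-values were Benjamini-Hochberg adjusted over 16119 genes, and the threshold was an adjusted p of 0.05. The SE was taken as |log2 fold| over sqrt(F). The script was tested on simulated data. Alternatives were DESeq2 1.42.0, other scalings, no filter, a replicate block, left-out libraries and added pseudogene counts. CPM are TMM-scaled; 3 counts equal 0.251 to 0.316 CPM. Members named are the 3 with the smallest p on each side of 0 per comparison, the highest and lowest levels, X-linked members, paralog pairs and members of known role. Of each ribosome list, genes that passed or else the 2 with the smallest p in UTRmut against WT are named. The result of 1 gene is not reported here, and Fau is given from the same list. Members and lists were chosen with earlier results of these data known.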

Additional observations from a re-analysis of the deposited data

Results flagged for a closer look

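A pair of genes of the list of elongation factors and other TOP mRNAs were singled out. Their change per mutant allele passed in a direct test of females against males, who cannot be told apart from the replicate series. In that test 2 of the 20 genes of this list passed, against 194 of all genes tested, 1.20%. An unadjusted p under 0.05 (edgeR) was reached by 13.6% of all genes there, against 2.71% in UTRmut against WT. Each sex had 1 library per genotype. Tpt1, the translationally controlled tumour protein, had 139 and 190 CPM for WT, 168 and 176 for het, and 203 and 178 for UTRmut, female first. The change per allele was higher in females by 0.32 on the log2 scale (SE 0.07, edgeR, Benjamini-Hochberg adjusted p = 0.0204). It did not pass without WT replicate 1, WT replicate 2 or UTRmut replicate 1 (adjusted p = 0.388, 0.537 and 0.314). Pabpc1, the main poly(A)-binding protein of the cytoplasm, had 79.8 and 102 CPM for WT, 82.9 and 77.4 for het, and 108 and 76.7 for UTRmut. Its difference was 0.43 (SE 0.09, adjusted p = 0.0232), and DESeq2 gave an adjusted p of 0.0727. It did not pass without UTRmut replicate 1, WT replicate 1 or WT replicate 2 (0.652, 0.119 and 0.751).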

How the results depend on the processing

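Leaving out 1 library at a time, the count of members that passed ran from 0 to 1 in UTRmut against WT and per allele (Rps16 without WT replicate 2, at adjusted p = 0.0106 and 0.0133), and from 0 to 2 for the difference between the sexes (Rpsa and Rpl21, without het replicate 2, 2.53% of members against 4.37% of all genes), where 2 also passed with no filter on low counts (2.53% against 2.05%). Where a group keeps 1 library, its spread is taken from the others. In UTRmut against WT the members with an unadjusted p under 0.05 numbered 6 with all libraries, 0 without WT replicate 1 or UTRmut replicate 2, and 41 without WT replicate 2 (51.9%, against 12.2% of all genes). Over the libraries left out, the members' median ran from 0.05 (without WT replicate 1) to 0.24 (without WT replicate 2) in UTRmut against WT, from -0.02 to 0.16 in het against WT, from -0.0036 to 0.16 in UTRmut against het, from 0.03 to 0.11 per allele and from -0.18 to -0.10 in females against males. With total counts alone the median of all genes was -0.07 in UTRmut against WT and that of the members 0.08, with 69 positive.

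Some log2 folds near 0 changed sign when 1 library was left out. In UTRmut against WT, Rps27l ran from -0.23 without WT replicate 1 to 0.20 without WT replicate 2 (0.06 without UTRmut replicate 2), Rplp2 from -0.11 to 0.10 without the same libraries (0.05 without UTRmut replicate 2), and Rpl21 from -0.17 without WT replicate 2 to 0.16 without WT replicate 1 (0.08 without UTRmut replicate 1). Per allele, Rps27l ran from -0.10 to 0.085 (0.02 without UTRmut replicate 2), Rplp2 from -0.045 to 0.049 (0.016) and Rpl21 from -0.090 to 0.050 (0.049 without WT replicate 1). In het against WT, Rps3a1 ran from -0.19 without het replicate 1 to 0.025 without het replicate 2 (0.023 without WT replicate 2), and was at 0.11 with copies added. In UTRmut against het, Rpl21 ran from -0.26 without het replicate 2 to 0.03 without het replicate 1, and Rpl26 from -0.20 without UTRmut replicate 1 to 0.040 without UTRmut replicate 2 (0.027 without het replicate 2). Rpsa was at 0.19 there with copies and 0.18 with named pseudogenes added. The pyrimidine motif matched from the start base on in 22% of members with RefSeq and 10.1% with GENCODE starts. A match started within 5 bases of the start in 49.2 and 24.1%. RefSeq starts were searched on both sides, GENCODE starts only from the start on. The cause of the difference was not tested.

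Replicate numbers give the sex and were not taken to pair animals (correlations of deviations 0.295, 0.080 and 0.196). With the replicate block, 0 members passed in the genotype comparisons, the median in UTRmut against WT was 0.14, and 11 members had an unadjusted p under 0.05 against 6 without it (13.9% of members and 3.81% of all genes with the block).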
